A study of Mus musculus with 7 samples.

Results

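C1qa, C1qb, C1qc, Cd5l, Csf1r, Adgre1, Mertk, Vcam1, Hmox1 and Slc40a1 are 10 genes that macrophages of the bone marrow (BM) are known for. They were chosen by symbol among the 48440 genes of the deposited expression table, and all 10 were present. Their levels were examined in LSK cells, which are lineage-negative BM cells with Sca1 and cKit on their surface and hold both the hematopoietic stem cells (HSCs) and the multipotent progenitors. The LSK cells came from chimeric C57BL/6 mice. The recipients were lethally irradiated with 9.5 Gy and given unfractionated BM from wild-type donors or from donors with a constitutive, endonuclease-mediated PROSER1 KO, so that both groups shared the irradiation, the transplant and the C57BL/6 host. Cells were sorted at day 77, and 4 wild-type and 3 PROSER1 KO libraries of polyadenylated RNA were sequenced as read pairs. PROSER1 is a partner of the TET enzymes, which oxidize methylated DNA. The KO was constitutive in all donor cells, whereas the labels do not say how many host cells remained among those sorted, nor whether each library came from 1 mouse or from pooled mice. P-values therefore measure the spread between these libraries.

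BM macrophages engulf ageing cells and the nuclei that erythroblasts expel, and they return the iron of the engulfed heme to the marrow. At the centre of erythroblastic islands they hold erythroblasts through VCAM1, and they tag and bind dying cells with C1q and with the receptor MERTK. Their growth and survival depend on CSF1R, the receptor of the growth factor CSF1. F4/80, the protein of Adgre1, is the antigen by which mouse macrophages are commonly recognized. An LSK gate is meant to leave such cells out, since the lineage antibodies of the study included CD11B, which many macrophages carry.

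Of the 10 genes, 4 had an entry in the RefSeq promoter table (GRCm38.p6), and the stretch upstream of each is printed to show what precedes genes whose levels are compared, C1qb and C1qc being neighbours. C1qb is shown at chr4:136886201-136886450 on the reverse strand, C1qc at chr4:136893066-136893164 on the reverse strand, Cd5l at chr3:87357631-87357880 on the forward strand and Mertk at chr2:128698665-128698914 on the forward strand. Each line is written 5′ to 3′ and ends before the gene as annotated. Capitals mark matches, on either strand, to GAGGAA (a core bound by PU.1 and other ETS factors) or TGCTGA (a MAF half-site).
C1qb: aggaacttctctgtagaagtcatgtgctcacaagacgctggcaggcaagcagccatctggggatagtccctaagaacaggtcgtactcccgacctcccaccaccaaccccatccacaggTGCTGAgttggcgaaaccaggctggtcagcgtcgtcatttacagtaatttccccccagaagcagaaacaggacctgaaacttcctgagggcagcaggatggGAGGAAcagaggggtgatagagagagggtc
C1qc: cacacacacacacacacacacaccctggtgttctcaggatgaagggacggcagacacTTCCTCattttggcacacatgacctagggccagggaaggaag
Cd5l: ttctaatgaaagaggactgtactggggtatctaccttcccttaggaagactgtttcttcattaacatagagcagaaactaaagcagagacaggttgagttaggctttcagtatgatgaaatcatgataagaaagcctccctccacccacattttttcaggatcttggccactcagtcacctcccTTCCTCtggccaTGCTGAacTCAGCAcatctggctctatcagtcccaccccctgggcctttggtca
Mertk: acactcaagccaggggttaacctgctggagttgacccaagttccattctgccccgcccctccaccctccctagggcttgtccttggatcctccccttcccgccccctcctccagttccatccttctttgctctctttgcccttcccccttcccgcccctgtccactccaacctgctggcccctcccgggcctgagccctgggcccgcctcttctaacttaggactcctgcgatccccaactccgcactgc

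In the 250 bases before each RefSeq start, GAGGAA was present in C1qb (25 to 30 bases before the start), in C1qc (188 to 193, reverse strand) and in Cd5l (61 to 66, reverse strand). TGCTGA was present in C1qb (126 to 131) and in Cd5l on both strands (49 to 54, and 41 to 46 in reverse), where the matches face each other and are separated by a few bases. Over all 32851 windows of this length in the table, 23.3% held GAGGAA and 16.1% held TGCTGA. The AP-1 core TGANTCA, which 6.75% of windows held, had no match in the 4 windows, and the Mertk window had none of the 3 motifs. These matches describe letters only, and no matches overlapped.

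Each library held 33143619 to 45140743 read pairs on genes. At this depth a count of 0 allows up to 3 read pairs, or 2.54 to 3.48 normalized counts (read pairs divided by 1 size factor per library). This limit and the Poisson intervals cover counting error only. The targeted gene Proser1 was not lower in libraries labelled PROSER1 KO (2338 to 2464 normalized counts) than in wild-type (2019.4 to 2153; log2 fold change 0.19, adjusted p = 0.204 by limma), so that the direction of each difference rests on the labels. Of 14 LSK and HSC markers, Cd34, Ly6a (Sca1) and Kit were high in all 7 libraries, with mean levels per kb of exon of 4422, 4159 and 3209. Others of the 14 stood lower, such as Slamf1 at 64.2 and Hoxb5 at 51.9, below the median of 267 for the protein-coding genes tested. Ly6a was named after its values had been seen, as the gene of a gate antigen. Plasma cell and B-cell markers (17 genes) took 4.11% to 9.35% of all normalized counts in wild-type against 4.57% to 6.89% in those labelled PROSER1 KO, with the highest share in wild-type replicate 4.

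All 10 macrophage genes were detected in every library, at low levels. Together they held 1001 to 1754 read pairs per library, which is 0.00234% to 0.00347% of all in wild-type and 0.00366% to 0.00408% in those labelled PROSER1 KO. Csf1r alone supplied 44.2% to 61.4% of these read pairs. Without Csf1r, the summed normalized counts of the other 9 genes were 501, 479, 639 and 783 in the wild-type libraries (replicates 1 to 4) and 547, 828 and 889 in those labelled PROSER1 KO (replicates 1 to 3), and the groups overlapped. Since these are bulk libraries, the number of macrophages among the sorted cells, their RNA per cell and transcription in other sorted cells cannot be told apart.

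Per kb of exon, Hmox1 and Csf1r stood above the other 8 genes. The length used covers all annotated exons of a gene, whether or not they were transcribed here. It ran from 1040 bases for C1qa to 9000 for Slc40a1 (8870 for Vcam1), and the order of the genes depends on it. The mean normalized counts per kb over the 7 libraries were 127 ± 27.0 (SD, n = 7) for Hmox1 and 109 ± 24.7 for Csf1r, and the ranges of these neighbours overlapped (85.2 to 157 and 73.4 to 151). C1qb followed at 33.3 ± 9.37 with a highest value of 45.9, below the lowest value of Csf1r. Below this gap, C1qa (26.3 ± 14.8), Vcam1 (17.98 ± 9.73), C1qc (14.9 ± 3.17), Cd5l (13.2 ± 7.93), Slc40a1 (12.3 ± 4.21), Adgre1 (8.41 ± 2.99) and Mertk (6.29 ± 3.44) formed a series in which every gene overlapped the next in its range. Among the 13122 protein-coding genes tested, with a median of 267 normalized counts per kb, Hmox1 stood at the percentile 32.6 and Mertk at 5.39.

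**Figure D1:**
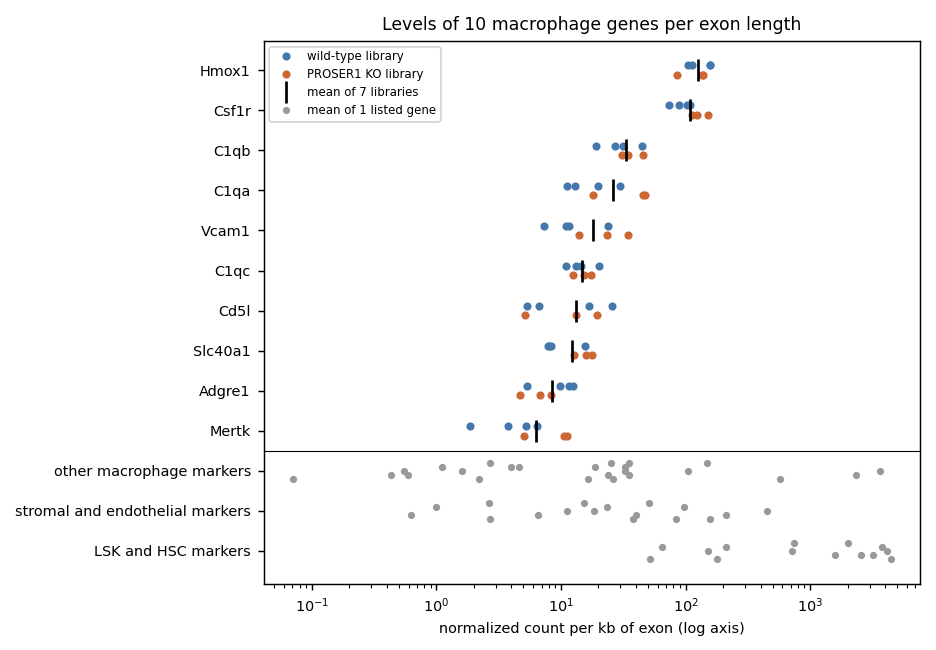
Normalized counts per kb of exon (log axis) of the 10 macrophage genes, ordered by their mean. Coloured points are single libraries (4 wild-type, 3 labelled PROSER1 KO), black ticks are means of the 7 libraries, and grey points are means of the single genes of 3 marker lists. The values of Hmox1 and Csf1r do not overlap those of the other 8 genes, and Cd34, the highest of the LSK and HSC markers, stands at 4422.

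Between the groups, 0 of the 10 genes were differentially expressed, which required a fold change above 1.5 together with an adjusted p-value under 0.05 by limma on log2(normalized count + 1). Over all 16251 tested genes this call was made for 0.258% (42 genes). Unadjusted p-values under 0.05 were found for 2 of the 10, Csf1r and Slc40a1, both higher in the libraries labelled PROSER1 KO, and for 9.73% of all tested genes. With edgeR on the recovered read pairs 0 were called and 2 had an unadjusted p-value under 0.05, and with DESeq2 the numbers were 0 and 3. Over all genes, such p-values were found for 1603 of 16251 with edgeR and for 1841 of 48440 with DESeq2, which had no filter. The groups did not overlap for 1 gene, Csf1r, against 10% of all tested genes. The fold changes had a median of 0.39 on the log2 scale, with 7 genes above 0 and 3 (Adgre1, Cd5l and Hmox1) below it, whereas the median over all tested genes was 0.0015 and 50.6% lay above 0. All log2 fold changes are on the scale of log2(normalized count + 1), which can understate those of genes with low counts.

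**Figure D2:**
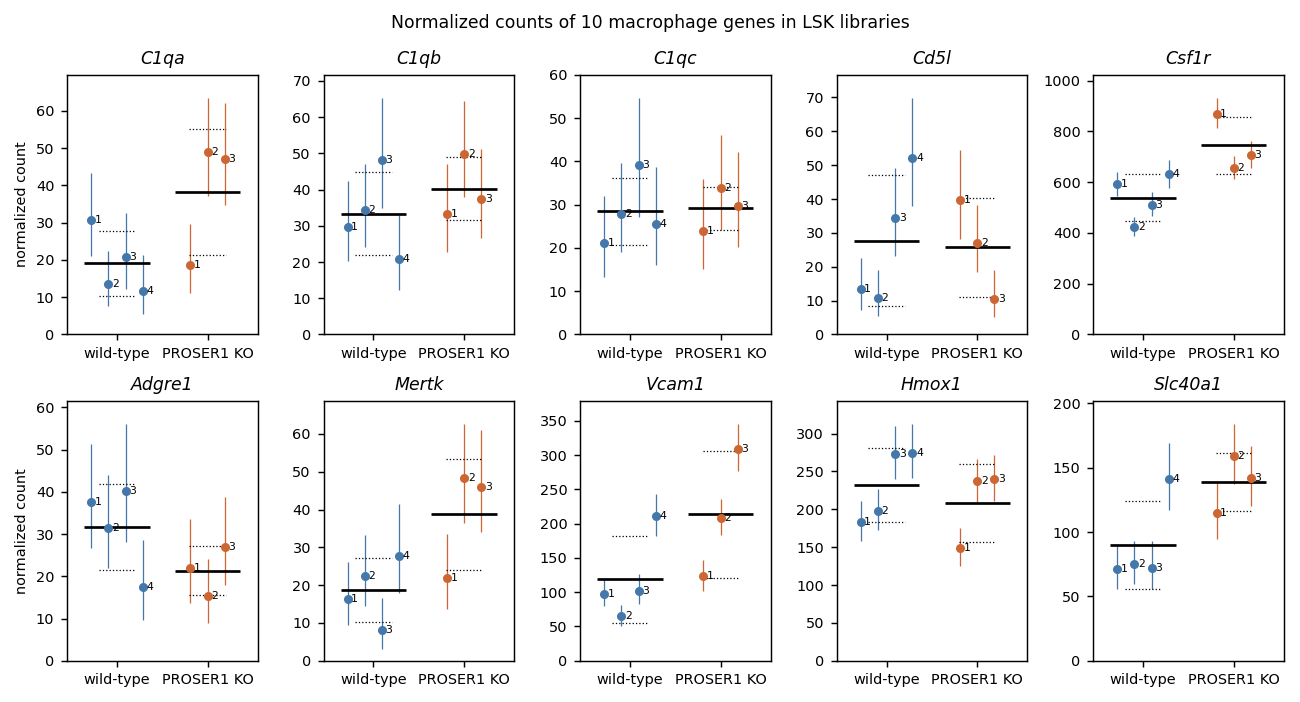
Normalized counts of the 10 macrophage genes in each library, with the replicate number beside each point. Thin vertical lines are Poisson 95% intervals of the read pairs, thick lines are group means and dotted lines mark 1 SD on either side; each axis starts at 0. The groups are apart for Csf1r, where all 3 libraries labelled PROSER1 KO (657 to 870.0) lie above the 4 wild-type libraries (424 to 631), and they overlap for the other 9 genes.

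The genes of complement component C1q lie next to each other on the reverse strand of chromosome 4 (GRCm38) and encode the A, B and C chains of the protein that binds immune complexes and dying cells and starts the classical complement pathway. C1qa (ENSMUSG00000036887, chromosome 4, 136895917 to 136898803) had 30.8, 13.5, 20.7 and 11.6 normalized counts across wild-type replicates 1 to 4 against 18.8, 49.1 and 47.0 in those labelled PROSER1 KO (replicates 1 to 3). PROSER1 KO replicates 2 and 3 stood above all others, while replicate 1 lay inside the wild-type range. Group means were 19.1 ± 8.68 (SD, n = 4) against 38.3 ± 16.9 (SD, n = 3), giving a log2 fold change of 0.94 (standard error, SE, 0.46, 95% interval -0.10 to 1.99, adjusted p = 0.547 by limma). Without PROSER1 KO replicate 1 the log2 fold change was 1.38, and with each library left out the adjusted p-value was 0.381 or more.

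C1qb (ENSMUSG00000036905, chromosome 4, 136880129 to 136886187) had 29.8, 34.3, 48.3 and 20.9 normalized counts in wild-type against 33.4, 49.9 and 37.4 in those labelled PROSER1 KO. Wild-type replicate 3 and PROSER1 KO replicate 2 were almost level at the top, and the log2 fold change of 0.31 (SE 0.33, adjusted p = 0.812 by limma) had an interval of -0.44 to 1.05. It was 0.11 without wild-type replicate 4, 0.14 without PROSER1 KO replicate 2 and 0.50 without wild-type replicate 3. C1qc (ENSMUSG00000036896, chromosome 4, 136889804 to 136893065) had 21.2, 27.9, 39.1 and 25.5 normalized counts in wild-type against 24.0, 33.8 and 29.8 in those labelled PROSER1 KO. Its highest and its lowest library were both wild-type, and the log2 fold change was 0.06 (SE 0.31, 95% interval -0.64 to 0.76, adjusted p = 0.973 by limma). It changed sign to -0.07 without wild-type replicate 1 and to -0.05 without PROSER1 KO replicate 2.

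The 3 chains are assembled into 1 protein, and the share of C1qa among their read pairs ranged from 17.9% to 41.2%. C1qa supplied 37.6% (27.4% to 48.8%, exact Clopper-Pearson 95% interval) of the 85 C1q read pairs in wild-type replicate 1. Its share was 17.9% (10.4% to 27.7%) of 84 in replicate 2, 19.1% (11.8% to 28.6%) of 94 in replicate 3 and 20% (10.03% to 33.7%) of 50 in replicate 4. In the libraries labelled PROSER1 KO it was 24.7% (15.3% to 36.1%) of 73, 36.9% (29.4% to 45.0%) of 157 and 41.2% (32.2% to 50.6%) of 119. The intervals of PROSER1 KO replicates 2 and 3 lay above those of wild-type replicates 2 and 3 and overlapped those of the other libraries. These intervals cover counting error only, which was large with 10 to 58 read pairs of C1qa per library, and the share was not tested between the groups.

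Cd5l (ENSMUSG00000015854, chromosome 3, 87357881 to 87371073, forward strand) encodes a secreted protein of tissue macrophages, also called AIM, that binds lipids and circulates with IgM. Its normalized counts were 13.5, 10.8, 34.5 and 52.2 in the wild-type libraries (replicates 1 to 4) and 39.6, 27.1 and 10.6 in those labelled PROSER1 KO (replicates 1 to 3). High and low libraries occurred in both groups, from PROSER1 KO replicate 3 at the bottom to wild-type replicate 4 at the top. The log2 fold change was -0.01, with the largest SE of the 10 genes (0.62, 95% interval -1.41 to 1.39, adjusted p = 0.998 by limma). Its pooled SD within groups was 1.00 on the log2 scale, against a median of 0.52 for the 2649 genes within 2-fold of its level.

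Csf1r (ENSMUSG00000024621, chromosome 18, 61100598 to 61132149, forward strand) encodes the receptor tyrosine kinase for CSF1 and IL34 and is transcribed in monocytes and some myeloid progenitors as well as in macrophages. It had 592, 424, 511 and 631 normalized counts across wild-type replicates 1 to 4 against 870.0, 657 and 708 in those labelled PROSER1 KO (replicates 1 to 3). All libraries labelled PROSER1 KO were above all wild-type libraries, with PROSER1 KO replicate 2 closest to wild-type replicate 4. Group means were 540 ± 91.8 (SD, n = 4) against 745 ± 111 (SD, n = 3), with a 1.39-fold difference below the minimum of 1.5-fold. Its log2 fold change was 0.47 (SE 0.15, 95% interval 0.14 to 0.81, unadjusted p = 0.0111, adjusted p = 0.334 by limma). The adjusted p-value was 0.0599 with DESeq2 and 0.325 with edgeR, and the log2 fold change stayed between 0.35 (without PROSER1 KO replicate 1) and 0.56 with each library left out. Mir6983 on the same strand and Hmgxb3 on the other overlap Csf1r, and the strand setting of the counting is not given in the sources used here, so that read pairs in the shared stretches are uncertain.

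The ligand and partner genes of these receptors were examined as a list of 18, of which 17 passed the filter, 0 were called and 3 had an unadjusted p-value under 0.05. Csf1, the main ligand of CSF1R, had 351, 444, 409 and 369 normalized counts in wild-type against 532, 458 and 456 in those labelled PROSER1 KO. The groups did not overlap, and the log2 fold change was 0.29 (SE 0.11, adjusted p = 0.431 by limma). Il34, the other ligand, was at 2.32 or less in wild-type and at 4.80 or less in those labelled PROSER1 KO, around the limit of 3 read pairs. Spi1, which encodes PU.1, a factor that drives Csf1r transcription, had 3275 ± 264 normalized counts (SD, n = 4) in wild-type against 3269 ± 143 (SD, n = 3) with the PROSER1 KO label (adjusted p = 0.999 by limma). Il34 and Spi1 were named after their values had been seen.

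Adgre1 (ENSMUSG00000004730, chromosome 17, 57358691 to 57483527, forward strand) had 37.5, 31.6, 40.2 and 17.4 normalized counts in wild-type against 21.9, 15.2 and 26.9 in those labelled PROSER1 KO. Wild-type replicates 1 to 3 stood above every library labelled PROSER1 KO, while wild-type replicate 4 was lower than 2 of those 3 libraries. The log2 fold change was -0.52 (SE 0.38, 95% interval -1.37 to 0.33, adjusted p = 0.700 by limma), and with 1 library left out it ranged from -0.77 (without wild-type replicate 4) to -0.30 (without PROSER1 KO replicate 2).

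Mertk (ENSMUSG00000014361, chromosome 2, 128698956 to 128802894, forward strand) encodes a receptor through which macrophages engulf apoptotic cells that are bridged to it by GAS6 or protein S. Its normalized counts were 16.3, 22.5, 8.05 and 27.8 in the wild-type libraries (replicates 1 to 4) and 21.9, 48.2 and 46.1 in those labelled PROSER1 KO (replicates 1 to 3). PROSER1 KO replicates 2 and 3 were highest, as for C1qa, and replicate 1 lay below 2 wild-type libraries. Group means were 18.7 ± 8.50 (SD, n = 4) against 38.7 ± 14.6 (SD, n = 3). Its log2 fold change of 1.06 was the highest of the 10 genes, with an SE of 0.47, an interval of -0.01 to 2.12 and an adjusted p-value of 0.515 by limma. A pseudocount of 10 in place of 1 gave 0.77, and the fit without wild-type replicate 4 gave 1.28. With 1 library left out, the log2 fold change ranged from 0.72 (without wild-type replicate 3) to 1.41 (without PROSER1 KO replicate 1). The antisense gene Gm14011 and the small nucleolar RNA gene Gm23172 overlap Mertk.

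Of the bridging ligands of MERTK, Pros1, which encodes protein S, had 175, 196, 210.3 and 188 normalized counts in wild-type against 240, 311 and 295 in those labelled PROSER1 KO. Those groups did not overlap, with a log2 fold change of 0.55 (SE 0.14, adjusted p = 0.200 by limma). Gas6 had overlapping groups (472 ± 63.0 and 397 ± 97.6, log2 fold change -0.27, adjusted p = 0.645 by limma). In a wider list of 25 genes for the clearance of apoptotic cells, 22 passed the filter, 0 were called, 3 were higher and 1 was lower with an unadjusted p-value under 0.05, and the median log2 fold change was 0.03. Abcg1, which exports cholesterol after engulfment, had the lowest p-value and was lower (4150 ± 256 and 3487 ± 129, log2 fold change -0.25, adjusted p = 0.169 by limma), while Dock1, part of the engulfment machinery, was higher (1133 ± 133 and 1438 ± 59.5, log2 fold change 0.35, adjusted p = 0.218 by limma). Axl, the relative of Mertk with the highest level per kb of the receptors in this family (105, against 15.4 for Tyro3 and 6.29 for Mertk), had a log2 fold change of 0.07 (adjusted p = 0.844 by limma). Axl and Tyro3 were named after their values had been seen.

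Vcam1 (ENSMUSG00000027962, chromosome 3, 116109949 to 116129688, reverse strand) encodes an adhesion molecule of macrophages that endothelial and stromal cells of the BM also carry, and which binds the integrin of Itga4 and Itgb1. Its normalized counts were 98.1, 64.9, 102 and 211 in the wild-type libraries (replicates 1 to 4) and 123, 208 and 309 in those labelled PROSER1 KO (replicates 1 to 3). Wild-type replicate 4 was level with PROSER1 KO replicate 2, and PROSER1 KO replicate 1 stood just above the other wild-type libraries. Group means were 119 ± 63.5 (SD, n = 4) against 213 ± 93.1 (SD, n = 3), with a log2 fold change of 0.87 (SE 0.41, 95% interval -0.04 to 1.79, adjusted p = 0.528 by limma). It was 0.56 without PROSER1 KO replicate 3 and 1.22 without PROSER1 KO replicate 1, and 1.19 without wild-type replicate 4. Its SD within groups (0.69 on the log2 scale) exceeded that of 96% of the 2093 genes within 2-fold of its level, whose median was 0.25. Gm43109 overlaps it on the other strand. Itga4 and Itgb1 had log2 fold changes of -0.01 and 0.03 (adjusted p = 0.969 and 0.904 by limma).

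Markers of stromal and endothelial cells followed the same order of libraries at its ends. For Vcam1 the order from high to low was PROSER1 KO replicate 3, wild-type replicate 4, PROSER1 KO replicates 2 and 1, then wild-type replicates 3, 1 and 2. The mean log2 level of the 15 tested stromal and endothelial markers had the same 3 libraries on top in the same order and the same library, wild-type replicate 2, at the bottom. Relative to the mean of the 7 libraries it was 0.81 in PROSER1 KO replicate 3, 0.49 in wild-type replicate 4, 0.16 in PROSER1 KO replicate 2 and -1.03 in wild-type replicate 2. The likeness to Vcam1 was not particular to these markers. The other macrophage markers also had these 3 libraries on top, in another order, and wild-type replicate 2 at the bottom (-0.26). Csf1r was lowest in wild-type replicate 2 as well. Summed normalized counts of the 17 markers were 5101 to 6580 in wild-type and 6054 to 8470 in those labelled PROSER1 KO, and none was at 0 in all libraries. Pdgfrb took the largest part of these sums (2223 ± 457 and 2837 ± 71.7), and Tek and Emcn came next by their mean over the 7 libraries. Others stood low, such as Pdgfra and Col3a1, with means of 6.33 and 9.73 over the 7 libraries. Both were below the filter and were named after their values had been seen. The sums thus follow a few genes and do not measure the content of stromal and endothelial cells. Of the 15, 12 were above 0 with a median log2 fold change of 0.42, 0 were called, and 2, Emcn and Pdgfrb, had an unadjusted p-value under 0.05. Emcn, an endothelial and HSC surface protein, had 764 ± 55.3 and 983 ± 113 normalized counts (log2 fold change 0.36, adjusted p = 0.233 by limma), and Flt4, of sinusoidal endothelium, had 126 ± 68.8 and 188 ± 75.2 (log2 fold change 0.63, adjusted p = 0.650 by limma). The part of these cells in the level of Vcam1 was not tested.

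Hmox1 (ENSMUSG00000005413, chromosome 8, 75093621 to 75100589, forward strand) encodes the inducible heme oxygenase, which opens heme and frees its iron. It had 183, 198, 274 and 275 normalized counts in wild-type against 149, 237 and 240.0 in those labelled PROSER1 KO. PROSER1 KO replicate 1 was lowest, and the other 2 libraries of this group lay inside the wild-type range. The log2 fold change was -0.16 (SE 0.22, 95% interval -0.66 to 0.33, adjusted p = 0.867 by limma), and it turned to 0.06 without PROSER1 KO replicate 1.

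Slc40a1 (ENSMUSG00000025993, chromosome 1, 45908068 to 45926523, reverse strand) encodes ferroportin, the transporter through which the freed iron leaves the cell. Its normalized counts were 71.2, 74.8, 72.4 and 141 in the wild-type libraries (replicates 1 to 4) and 115, 159 and 142 in those labelled PROSER1 KO (replicates 1 to 3). Wild-type replicates 1 to 3 lay close together below all libraries labelled PROSER1 KO, while wild-type replicate 4 stood apart, level with PROSER1 KO replicate 3. Group means were 90.0 ± 34.4 (SD, n = 4) against 139 ± 22.4 (SD, n = 3). The log2 fold change was 0.67 (SE 0.27, 95% interval 0.07 to 1.27, unadjusted p = 0.0328, adjusted p = 0.454 by limma). Without wild-type replicate 4 it was 0.91, with an adjusted p-value of 0.187 by limma.

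Hmox1 and Slc40a1, the first and last steps of heme iron recycling, thus differed in the sign of their values, and neither passed the test. In a list of 23 other genes for heme and iron handling, 20 passed the filter, 0 were called, 0 had an unadjusted p-value under 0.05 and the median log2 fold change was -0.02. The ferritin genes Fth1 (22241 ± 1155 and 22909 ± 1123) and Ftl1 (16333 ± 931 and 15453 ± 467) were abundant and had adjusted p-values of 0.860 and 0.679 by limma. Aco1, an iron sensor, had the lowest p-value of the list, with a log2 fold change of -0.13 (adjusted p = 0.531 by limma). Slc11a1, an iron transporter of the phagosome of macrophages, had 13.5, 6.31, 14.9 and 19.7 normalized counts in wild-type against 41.7, 24.5 and 17.3 in those labelled PROSER1 KO, with a log2 fold change of 0.99 (adjusted p = 0.535 by limma).

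**Figure D3:**
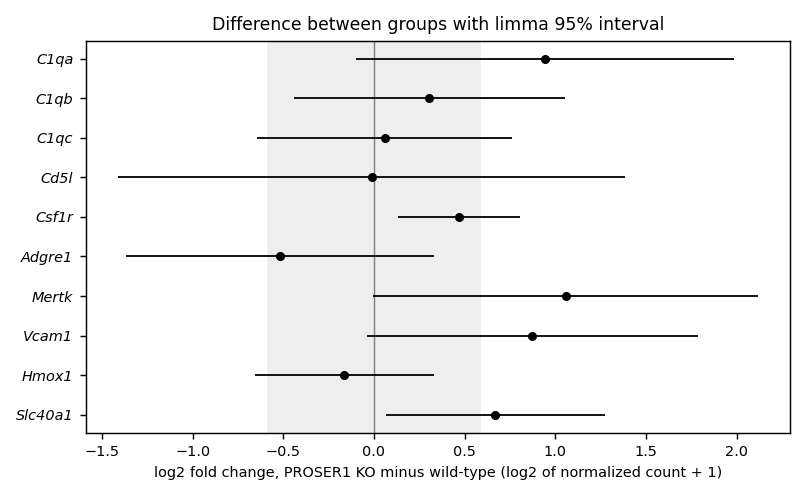
Log2 fold change of each macrophage gene (libraries labelled PROSER1 KO minus wild-type, on log2 of the normalized count plus 1) with its limma 95% interval as a horizontal line; the shaded band spans 1.5-fold in either direction. The intervals of Csf1r (0.14 to 0.81) and Slc40a1 (0.07 to 1.27) exclude 0 without adjustment for multiple tests, and those of the other 8 genes include it.

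The complement genes that act with C1q were taken as a list of 23, of which 16 passed the filter, 0 were called, 3 were higher and 1 was lower at an unadjusted p-value under 0.05. C1ra, which encodes the protease C1r of the C1 complex, had 530, 618, 687 and 587 normalized counts in wild-type against 807, 949 and 781 in those labelled PROSER1 KO. The groups did not overlap, with a log2 fold change of 0.48 (SE 0.11, adjusted p = 0.148 by limma), the lowest p-value of the list. Its close copy C1rb, likewise named after its values had been seen, was at 0 in all 7 libraries, so that the read pairs of this pair are uncertain. C4b, the next component in the cascade, had 104 ± 18.5 and 142 ± 18.8 (log2 fold change 0.45, adjusted p = 0.486 by limma). Calr, a chaperone that also binds C1q, had 37000 ± 959 and 33101 ± 3259 (log2 fold change -0.17, adjusted p = 0.463 by limma).

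Of 24 other macrophage markers, 16 passed the filter, 0 were called and 1, Sdc3, had an unadjusted p-value under 0.05, with 11 above 0, 5 below and a median log2 fold change of 0.21. Their summed normalized counts were 12395 to 13414 in wild-type and 12754 to 13655 in those labelled PROSER1 KO, mostly from Apoe (5016 ± 440 and 4859 ± 624) and Lyz2 (4649 ± 387 and 5073 ± 275). Both are also transcribed in other cells of the BM. Sdc3, a syndecan, was lower (975 ± 154 and 767 ± 106, log2 fold change -0.34, adjusted p = 0.436 by limma), and the scavenger receptor gene Cd163 was higher (173 ± 25.8 and 220 ± 28.3, log2 fold change 0.35, adjusted p = 0.519 by limma). Several genes that define tissue macrophages were near 0. Marco and Clec4n had 3 read pairs or fewer in every library, Timd4 had 5.77 normalized counts in wild-type replicate 1 and 1.69 or less elsewhere, and Folr2 had 3.85 in that library and 0.846 or less elsewhere. Siglec1 (CD169) had 4.81, 4.51, 21.8 and 26.7 in wild-type and 14.6, 22.8 and 14.4 in those labelled PROSER1 KO. These 5 genes, Marco, Clec4n, Timd4, Folr2 and Siglec1, were named after their values had been seen.

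Slc40a1 and Mertk shared their highest 3 libraries in the same order (PROSER1 KO replicates 2 and 3, then wild-type replicate 4). The same 3 libraries had the highest mean log2 levels of the other macrophage markers (0.23, 0.17 and 0.07 above the mean of the 7 libraries in PROSER1 KO replicates 3 and 2 and wild-type replicate 4). Wild-type replicate 1 came close behind at 0.03. These 3 libraries were also highest for the stromal and endothelial markers (0.81, 0.16 and 0.49 in the same order of naming), so this was not particular to macrophage markers. Csf1r had another order, led by PROSER1 KO replicate 1, and Adgre1 another, led by wild-type replicates 3, 1 and 2. The 10 genes therefore did not rank the libraries in 1 common way.

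**Figure D4:**
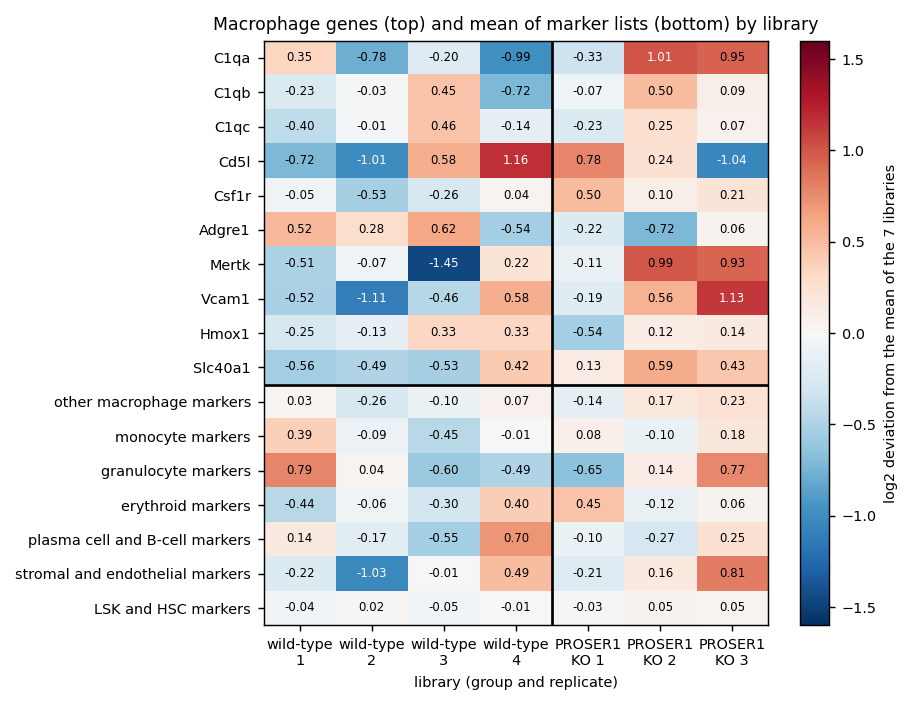
Log2 level of each macrophage gene (upper part) and mean log2 level of the tested genes of 7 marker lists (lower part) in each library, as the deviation from the mean of the 7 libraries (colour and printed value). Columns are the 4 wild-type libraries and the 3 labelled PROSER1 KO. Vcam1 runs from -1.11 in wild-type replicate 2 to 1.13 in PROSER1 KO replicate 3, and the stromal and endothelial markers from -1.03 to 0.81 in the same libraries, while the LSK and HSC markers run from -0.05 to 0.05.

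Mean levels of markers of other blood cells varied between libraries without separating the groups. Of 12 monocyte markers, a list that includes Csf1r, 11 passed the filter, 0 were called, 3 were higher and 1 was lower with an unadjusted p-value under 0.05, and the summed normalized counts were 5298 to 7553 in wild-type and 5869 to 6796 in those labelled PROSER1 KO. Ms4a6c, a membrane protein gene of monocytes, had 838, 945, 1138 and 918 normalized counts in wild-type against 1371, 1339 and 1362 in those labelled PROSER1 KO, with a log2 fold change of 0.51 (SE 0.10, adjusted p = 0.0862 by limma). Ccr2, the receptor by which monocytes leave the BM, lay on the other side, at 840 ± 244 and 598 ± 41.1 (log2 fold change -0.45, adjusted p = 0.459 by limma). The mean of the 14 granulocyte markers was highest in wild-type replicate 1 and PROSER1 KO replicate 3 (0.79 and 0.77 above the mean of the libraries), a pair of libraries that led for none of the 10 macrophage genes. Of the 14 granulocyte, 12 erythroid, 17 plasma cell and B-cell, 12 dendritic cell and 14 LSK and HSC markers tested, 0 were called, and the median log2 fold changes of these lists were 0.001, 0.05, -0.22, -0.09 and 0.01. Cd5l and the plasma cell and B-cell markers were both highest in wild-type replicate 4, as was Hmox1, but their other libraries differed in order. PROSER1 KO replicate 3 came next for the plasma cell and B-cell markers and was lowest for Cd5l. Wild-type replicate 3 was lowest for these markers, whereas its Cd5l level (34.5) was above those of wild-type replicates 1 and 2. The part of any of these cells in the levels of the macrophage genes was not tested.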

How the data were processed

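RNA of sorted LSK cells was sequenced for 4 wild-type libraries and 3 labelled PROSER1 KO, grouped by their labels. Per the methods and the submitters' processing notes, reads were trimmed (Trimmomatic) and mapped to mm10, GRCm38.p6 (STAR), and the authors counted read pairs for each gene (featureCounts) and scaled each library by its own DESeq2 size factor. What they deposited is thus a normalized signal for each gene rather than counts, and no filter on low values was seen. The methods and the header of the identifier column name different GENCODE releases. Whole read pairs were recovered from the step of each library (100% of values whole within 0.01), and 0 columns of other samples were unused. The 685 genes lacking a symbol took up to 0.135% of read pairs.

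Groups were tested in R 4.3.3 with limma 3.58.1, with lmFit and a mean-variance trend in eBayes. The values were log2(normalized count + 1) of the 16251 genes whose mean was 10 or more. Called genes had a fold change above 1.5 and a Benjamini-Hochberg adjusted p-value under 0.05 over all of these. Standard errors and intervals are those of limma. As alternatives, the pseudocount was set to 0.1 or 10, the minimum mean to 50 or none, the variances were estimated robustly or without a trend, the scaling was by quantiles or TMM, and recovered read pairs were tested with edgeR 4.0.16 (quasi-likelihood) and DESeq2 1.42.0. Further fits had no fold minimum, blocked on the replicate number, or omitted 1 library each. The fits were tested on simulated counts with genes of known change. Libraries of 1 group differed far beyond counting noise (chi-square per degree of freedom 30.4 to 96.6), so that each counted as 1 replicate. Positions and exon lengths come from GENCODE release M21 (GRCm38; 48058 genes matched), and motifs were searched in the 250 bases before each start of the RefSeq table.

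The 10 genes and all lists were chosen with earlier results of these data known. Named genes were the 10 themselves, any called gene of a list and otherwise at most the 4 with the highest mean and the 4 with the lowest p-value, and the 10 genes most correlated with the mean C1q level, some of which are not reported here. Genes outside this rule are marked in the text as named after their values had been seen. Lists are described by counts, medians and sums.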

Additional observations from a re-analysis of the deposited data

Results flagged for a closer look

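Slc40a1 in wild-type replicate 4, at 141 normalized counts, stood apart from the other wild-type libraries (71.2 to 74.8). Its gap to the nearest of them was 0.948 of the whole range of the group, above Dixon's critical value of 0.829 for 4 samples. Among 22 groups of 4 values that were examined this was the only one, and chance alone marks about 1 in 20. The same library had the highest sum of plasma cell and B-cell markers (9.35% of all normalized counts) and the highest wild-type levels of Csf1r (631), Cd5l (52.2), Vcam1 (211), Hmox1 (275) and Mertk (27.8), whereas C1qa (11.6), C1qb (20.9) and Adgre1 (17.4) were at their lowest wild-type levels there. The part of the plasma cells and B cells in the level of Slc40a1 was not tested.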

How the results depend on the processing

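Of the 10 macrophage genes, 0 were called in limma and in every alternative run, including edgeR, DESeq2 and each library left out. Those with an unadjusted p-value under 0.05 numbered between 1 and 5 when 1 library was left out (5 without wild-type replicate 4). Over all tested genes, such p-values numbered 1564 of 16209 without wild-type replicate 4, and 1252 to 1645 with any 1 library left out. At a minimum mean of 50, 4 of the 10 were tested. The genes called over the whole table numbered 42, and 17 without the trend, 80 with robust variances, 165 with DESeq2 (48440 genes without the filter) and 23 to 42 with 1 library left out, the lowest without PROSER1 KO replicate 2. The cause was not tested. Of the monocyte markers 0 to 1 were called with a library left out, the 1 being Ms4a6c without wild-type replicate 3. Left-out libraries turned the sign of C1qc (-0.066 to 0.22), Cd5l (-0.40 to 0.50) and Hmox1 (-0.28 to 0.062), whose values were near 0, and the other 7 genes kept their sign in all alternatives, C1qb with values from 0.11 to 0.50 and Adgre1 from -0.77 to -0.30 when 1 library was left out. The replicate block, in which wild-type replicate 4 has no partner, gave 0 called macrophage genes, 35 called genes in all, and 0.37 for Cd5l. With this block, 4 of the 10 genes had an unadjusted p-value under 0.05 by limma, against 1534 of all 16251 tested genes. The correlation of deviations between same-numbered libraries was 0.02, 0.06 and -0.11. These values showed no sign of pairing by number, but so few libraries cannot exclude it. Other scalings moved the median log2 fold change of all genes from 0.0015 to at most 0.0021. Low counts limit the C1q genes, Cd5l, Adgre1 and Mertk, with 7 to 59 read pairs per library.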

Other observations

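The 10 genes whose level over the 7 libraries was most like the mean log2 level of C1qa, C1qb and C1qc included Tpx2 (Pearson r 0.99, n = 7 libraries), Tmx2 (0.98), Pnpt1 (0.98), Zfp472 (0.97), Nup205 (0.96), Sgo2a (0.96), Tespa1 (0.96), Fam133b (0.96) and the processed pseudogene Gm18588 (0.96). With 7 points that share library and scaling, 104 tested genes had an r above 0.9, and 1 of the 16 tested other macrophage markers was among them, Lyz2 (0.91). After the group means were removed, the 10 closest included Glrx5, Srsf2, Abhd8, Pitpnb, Urb2, Rrs1, Tpx2, BC052040 and L3mbtl2 (0.98 to 1.00), of 220 genes above 0.9 that included 0 of the 16 markers, the highest being Lyz2 (0.86). Tpx2, a spindle protein of dividing cells, was the only gene in both groups of 10. These correlations describe the libraries and carry no test.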
